A study of Mus musculus with 16 samples.

Results

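Recurring nodule-only regions were stretches of the mouse genome that carried an H3K27Ac peak in at least 2 of 5 HCC nodules and in none of 5 WT and 5 inflamed livers. They were chosen by merging overlapping or adjoining peaks of the 15 peak lists on chromosomes 1 to 19 and reading, for each merged region, which animals had a peak in it. Of 55617 merged regions, 2610 met the rule, which is 4.69% of them. Presence and absence of peaks chose these regions, so the values that follow from that choice are descriptions and carry no test.

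H3K27Ac ChIP-seq was measured in whole tissue, with 1 animal per library. WT livers came from Mdr2-WT mice of strain FVB.129P2 by the labels, which the study's methods call FVB/NJ, and inflamed livers and nodules came from Mdr2-KO mice of strain FVB.129P2-Abcb4tm1Bor/J, a knockout present in every cell of the animal. WT and nodule-bearing mice were aged 14 to 19 months and mice with inflamed livers 7 to 8 months, so that age and disease stage cannot be told apart between inflamed livers and nodules. All 3 groups had received clodronate liposomes, which kill macrophages, at 50 μg per g of body weight for 48 hours before collection, a dose taken from the labels that differs from the one in the study's methods. Mice of both sexes were used, the labels do not say which was which, and a control of untreated WT liver, titled Input and given as IgG by its antibody label, was not analysed here. Nodules are numbered 1 to 5 for animals 124711, 125278, 125279, 123206 and 123390, and the other groups are numbered in the order of their records, with WT 5 being animal 130748.

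Mdr2, the gene Abcb4, encodes the transporter that moves phosphatidylcholine from hepatocytes into bile, and without it bile acids damage the hepatocyte membrane and the liver becomes chronically inflamed before tumours appear. Acetylation of lysine 27 on histone H3 marks promoters and enhancers that are in use, and tumours are known to use enhancers that their tissue of origin does not. A peak is a stretch where the peak caller found signal above its cut-off, so a region without a peak may still hold weaker acetylation. In bulk tissue, acetylation in more cells and more acetylation per cell cannot be told apart.

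Lists held 25867 to 29618 autosomal peaks in WT livers, 35188 to 40063 in inflamed livers and 26235 to 41863 in nodules. The files give positions and scores and no read counts, so the depth of each library is unknown. Peaks on chromosome 1 ended as far as 197069010, and the labels give mm9 as the build. All coordinates are on that build, NCBI37/mm9. An annotation or genome of this build was not used here, so nearby genes, sequences, and liver or macrophage marker genes were not read at these regions. Nodule 1 and WT 5 stood apart, with 24.6% and 23.7% of their peaks tied at a score of 3100, against 9.65% to 18.3% in the other lists, and with the least genome under peaks, 91.4 and 108 Mb. Without these animals 2479 regions met the rule, in at least 2 of the 4 other nodules. The caption of the study's principal component analysis says that 2 of 15 samples were removed as outliers. It does not name them, and all 15 were kept here.

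Recurrence was low. Of the 2610 regions, 1956 (74.9%) had a peak in exactly 2 nodules, 501 in 3, 122 in 4 and 31 in all 5. The regions in all 5 nodules were 0.0557% of the merged regions, and those in 3 or more, 654 regions, were 1.18%. A further 9336 regions had a peak in a single nodule and in no other animal, so 78.2% of the 11946 regions found in nodules alone (21.5% of the merged regions) belonged to 1 nodule.

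The same rule was turned to the other groups to show what it gives there. It found 2684 inflamed-only regions (4.83% of the merged regions) and 713 WT-only regions (1.28%), and these regions share no member with the nodule set by construction. A peak in 3 or more animals was found in 64.7% of the inflamed-only regions, 54.1% of the WT-only regions and 25.1% of the nodule-only regions, which is 3.12%, 0.694% and 1.18% of the merged regions. Inflamed-only regions with a peak in all 5 animals numbered 484 (0.87% of the merged regions), against 33 (0.0593%) in WT livers and 31 in nodules. Counting regions of a single animal too, the inflamed livers held 8.2% and the WT livers 3.96% of the merged regions alone. Among the 3 groups, nodules thus had the most regions of their own, counting single animals, and the lowest share of them in common. The order of the 3 groups was another one when the lists were equally long. With every list cut to its best 25867 peaks, 1903 regions were nodule-only, 1305 WT-only and 1045 inflamed-only.

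**Figure D1:**
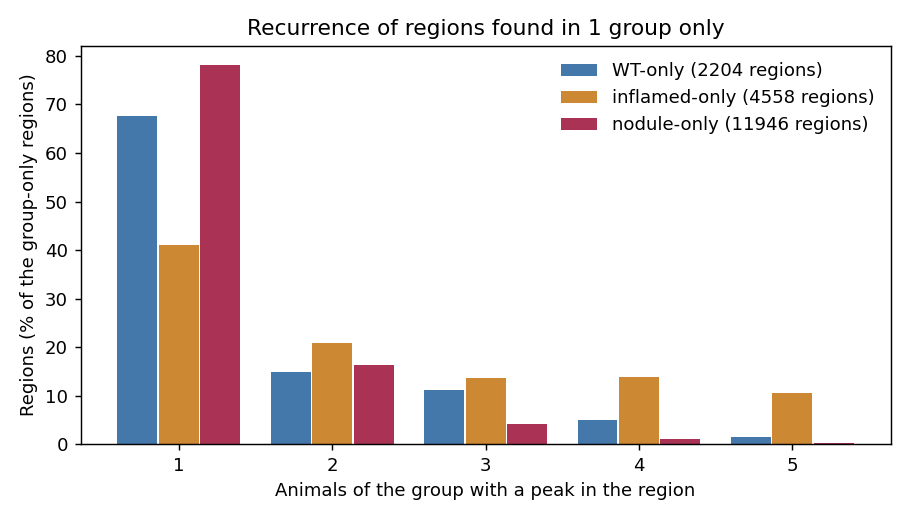
Bars give, for WT livers, inflamed livers and nodules, the percentage of regions found in that group alone (y axis) that had a peak in 1 to 5 of its animals (x axis). Nodule-only regions fell from 78.2% in 1 nodule to 16.4% in 2, while 10.6% of the inflamed-only regions were in all 5 inflamed livers.

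Each nodule took part to a different extent. Nodule 1 had a peak in 480 of the recurring regions, nodule 2 in 1346, nodule 3 in 1727, nodule 4 in 1237 and nodule 5 in 1268. Nodule 1 was low and nodule 3 high, and nodule 1 also had the shortest and nodule 3 the longest list. As a share of the regions in which the nodule had a peak, these were 2.33%, 4.43%, 4.83%, 4.94% and 4.92%, so that nodule 1 held the smallest share. With equal lists of 25867 peaks the numbers were 553, 651, 995, 1098 and 1102 for nodules 1 to 5. Nodules 4 and 5 then held the most, and nodule 2, which has the second longest full list, was near nodule 1. Nodule 3 also carried 3948 regions seen in no other animal, against 671 to 1821 in the other nodules. Without nodule 3 only 1435 regions met the rule, the lowest count among the animals left out in turn, and without WT 5 the count was highest, at 2872.

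**Figure D2:**
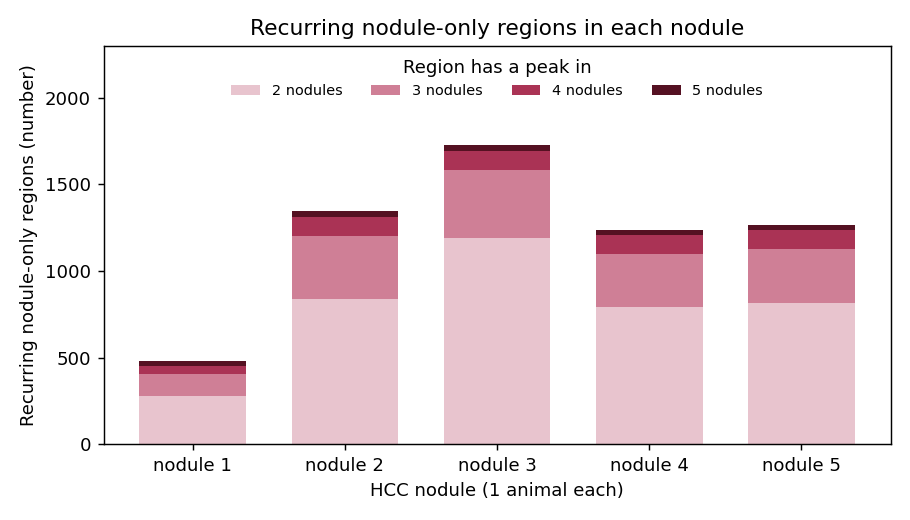
Stacked bars give the number of recurring nodule-only regions (y axis) with a peak in each HCC nodule (x axis), split by the number of nodules that share the region. Most of each bar is regions shared with 1 other nodule, from 480 regions in nodule 1 to 1727 in nodule 3 in all.

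The regions shared by exactly 2 nodules were not spread evenly over the 10 possible pairs. Nodules 3 and 4 shared 574 of the 1956 (29.3%), and nodules 2 and 5 shared 385 (19.7%). Nodules 2 and 3, which had the longest lists, shared 291 (14.9%), and nodules 3 and 5 shared 248 (12.7%). Each of the other 6 pairs shared 41 to 107. Of the 792 such regions of nodule 4, 72.5% were shared with nodule 3, and of the 813 of nodule 5, 47.4% were shared with nodule 2. Nodules 3 and 4 were the most frequent pair on 14 of the 19 chromosomes and nodules 2 and 5 on 3. In regions of exactly 2 nodules that had a WT or inflamed peak, these 2 partner shares were similar. Nodule 3 shared 73.8% of the 1373 such regions of nodule 4, and nodule 2 shared 48.6% of the 1549 of nodule 5. Read from the other nodule of each pair, the shares differed. Nodule 4 shared 48.3% of the recurring regions of nodule 3 with exactly 2 nodules, but 27.4% of those with a WT or inflamed peak. For nodule 5 and the regions of nodule 2 these were 46.0% and 24.9%.

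The pairs were then read in regions that the rule does not use. Among regions with a peak in exactly 2 nodules and in at least 1 WT or inflamed liver, nodules 2 and 3 came first with 1722 regions (32.4%), followed by nodules 3 and 4 with 1013 (19.1%) and nodules 2 and 5 with 753 (14.2%). The leading pair was therefore a different one in regions that other livers also used. On chromosome X, 48 regions met the same rule with exactly 2 nodules, and nodules 3 and 4 shared 18 of them, nodules 3 and 5 shared 11 and nodules 2 and 5 shared 5. With equal lists on the autosomes, nodules 3 and 4 shared 377 of 1452 (26%) and nodules 2 and 5 shared 216, while nodules 2 and 3 shared 42. The labels give no batch or kinship for the nodules.

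**Figure D3:**
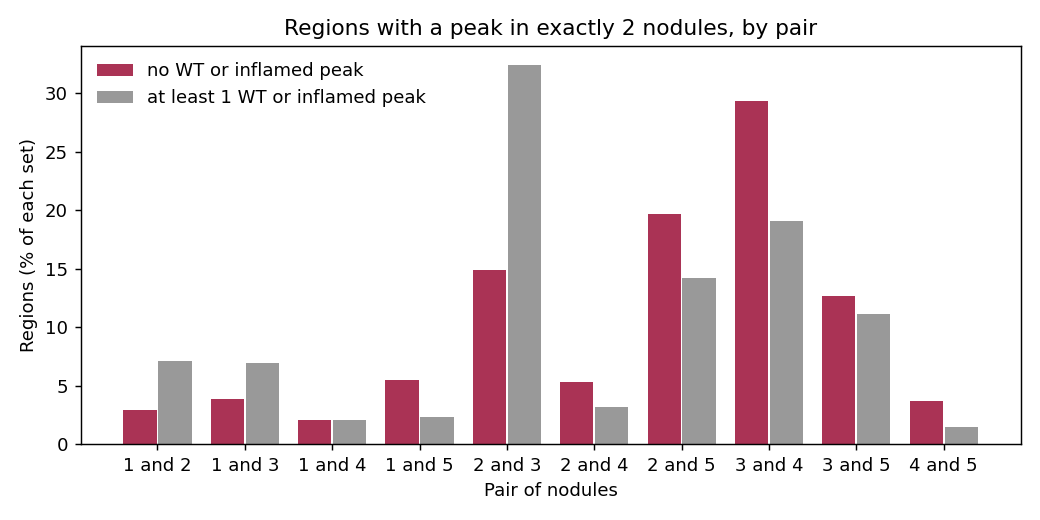
Paired bars give the percentage of regions with a peak in exactly 2 nodules (y axis) that belonged to each pair of nodules (x axis), for regions without and with a WT or inflamed peak. Nodules 3 and 4 hold 29.3% of the former, and nodules 2 and 3 hold 32.4% of the latter.

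Whether such regions recur in a further nodule was read in animals whose peaks were not counted in the choice. The bounds of the merged regions came from all 15 lists, including those of the left-out animals. In every combination, 1 nodule, 1 inflamed and 1 WT liver were left out together, regions were chosen with a peak in at least 2 of the other 4 nodules and in none of the other 8 livers, and the 3 left-out animals were read. The choices gave 1474 to 2672 regions. The left-out nodule had a peak in 25.6 ± 10.8% of them (SD over the means of 5 nodules), the left-out inflamed liver in 4.62 ± 1.55% and the left-out WT liver in 4.46 ± 3.24% (n = 5 each). In each of these choices the left-out nodule exceeded both of the animals left out with it. The choices share animals and are not independent, so no test was made of them.

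By animal, the mean was 9.09% in nodule 1, 29.5% in nodule 2, 38.9% in nodule 3, 24.8% in nodule 4 and 25.7% in nodule 5. The lowest and highest were the nodules with the shortest and longest lists, and the part of list length was not tested. Inflamed livers ranged from 3.47% to 7.29%, with inflamed 3 the highest. WT livers ranged from 1.38% to 9.75%, and WT 5, the highest, lay above nodule 1, so that the animal means of the groups overlapped through this pair. Regions chosen on exactly 1 of the other 4 nodules had a peak in 10.3 ± 5.44% of left-out nodules, 2.10 ± 1.30% of inflamed and 2.34 ± 2.40% of WT livers (SD, n = 5). In each of the 5 nodules the share was higher for regions chosen on 2 or more nodules than for regions chosen on 1.

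**Figure D4:**
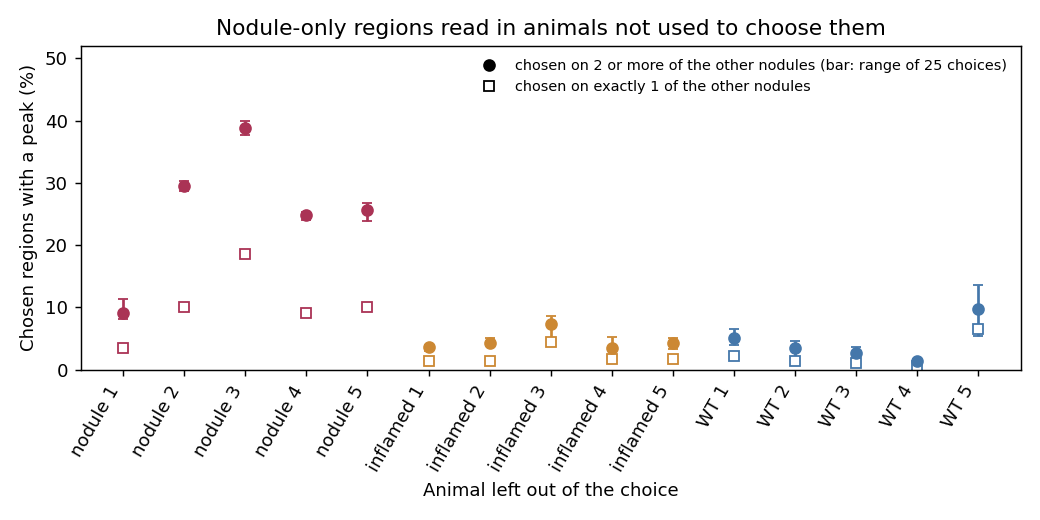
Points give the percentage of chosen regions with a peak (y axis) in each of the 15 animals when left out of the choice (x axis). Filled circles are means over 25 choices on at least 2 other nodules with their range, and open squares are choices on exactly 1. Nodules 2 to 5 lie from 24.8% to 38.9%, above the inflamed and WT livers, and nodule 1 at 9.09% lies below WT 5 at 9.75%.

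Peaks in these regions were weak within their lists. The score of the best peak in each region was turned into its percentile among the autosomal peaks of the same nodule, where the median of the list is 50 and peaks with equal scores share a percentile. The median percentile over the recurring regions was 21.2 in nodule 1, 21.9 in nodule 2, 24.0 in nodule 3, 23.8 in nodule 4 and 25.3 in nodule 5. Nodules thus differed little in this, and in each of them 49.4% to 57.1% of the regions lay below percentile 25 and 8.12% to 16.3% above 50. Regions of a single nodule were weaker still, at 15.1, 16.5, 17.6, 18.2 and 16.3 in nodules 1 to 5. The difference was 6.55 ± 1.42 percentile points (SD, n = 5), with the recurring regions higher in 5 of 5 nodules. Peaks are called by their score and their calls chose both sets, so this is a description with no test. The recurring regions lay below the median of all peaks of the same nodule by 26.7 ± 1.66 points on average.

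At the lower threshold, regions in exactly 2 nodules had a median width of 2918.5 bp and median percentiles of 20.02 to 23.98 by nodule, and regions in exactly 1 nodule had a median width of 2224.5 bp. Width rose with the number of nodules, with medians of 3406 bp for 3 nodules, 4342.5 bp for 4 and 4926 bp for 5, as a union of more peaks tends to. A median of 74.5% of the length of a recurring region lay under peaks of 2 or more nodules. Of the 31 regions with a peak in all 5 nodules, 29 held at least 1 base under a peak of every nodule. On the other side of the rule, 1158 regions had a peak in at least 2 nodules and in exactly 1 of the 10 WT and inflamed livers. WT 5 alone held 253 of these and inflamed 3 held 205, against 33 to 127 in each of the others. The median percentile of that single peak was 20.7 in the list of WT 5 and 7.71 in the list of inflamed 3.

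The recurring regions were no closer to regions in use in other livers than merged regions at large. A region with a WT or inflamed peak lay within 1 kb of 15.3% of them and within 10 kb of 61.7%, against 17.05% and 65.9% of all merged regions, and the single-nodule, WT-only and inflamed-only regions gave 13.04% to 14.4% and 56.4% to 60.8%. The nearest region with a peak in all 15 animals was at a median distance of 30124.5 bp, against 32565 bp for all merged regions, 43519.5 bp for single-nodule regions, 46620 bp for WT-only and 104156 bp for inflamed-only regions. The recurring regions were thus at about the usual distance from common regions, and single-nodule, WT-only and inflamed-only regions were farther away. The recurring regions also gathered less than inflamed-only regions, which are about as many. Another region of the same set lay within 50 kb of 32.2% of the former and 43.5% of the latter. A recurring region lay within 50 kb of 19.5% of all merged regions, 22.6% of single-nodule, 11.1% of WT-only and 8.98% of inflamed-only regions. Recurring regions thus had another of their set nearby more often than merged regions at large had one. No test over regions was made of these distances, since neighbouring regions are not replicates.

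Among the 31 regions with a peak in all 5 nodules, those with the highest score percentiles in their weakest nodule are given first. The lowest of the 5 percentiles had a median of 12.3 over the 31 regions, and it exceeded 25 in 5 of them. A region on chromosome 6 from 140512884 to 140521396 ranked first. Its peaks covered 3471, 2040, 3577, 8513 and 4769 bp in nodules 1 to 5, at percentiles of 40.4, 43.6, 54.0, 68.8 and 77.9. Nodule 4 covered the whole region, and the nearest region with a WT or inflamed peak was only 146 bp away, so that this region adjoins acetylated chromatin of other livers.

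On chromosome 5, a pair of such regions lay 1782 bp apart. The first, from 145662928 to 145667648, was covered over 2823, 4357, 3735, 4720 and 3199 bp in nodules 1 to 5. The second, from 145669431 to 145680859, was covered over 7379, 8495, 2632, 11429 and 4787 bp. Nodule 4 covered nearly all of both, and the peaks of nodule 4 had percentiles of 70.7 and 74.7, above those of every other nodule at each region. WT and inflamed regions began 1733 bp and 3063 bp away.

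The widest recurring region lay on chromosome 7 from 149733311 to 149766944 and had a peak in all 5 nodules over 33634 bp. Peaks covered 5592 bp in nodule 1 and 8590 bp in nodule 2, and 26451, 33087 and 32636 bp in nodules 3, 4 and 5. Nodules 3 to 5 thus carried a broad acetylated domain that nodules 1 and 2 carried in a small part. The percentiles showed the same split, at 25.01 and 32.8 in nodules 1 and 2 and 80.4, 92.9 and 88.8 in nodules 3 to 5, where 92.9 is shared by the peaks of nodule 4 tied at a score of 3100. The nearest WT or inflamed region was 6538 bp away.

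The top 10 of the 31 regions held 6 others. They spanned 60921559 to 60932668 on chromosome 10, 23017679 to 23021816 on chromosome 5 and 57765681 to 57769651 on chromosome 15. Chromosome 18 held a pair, at 3891979 to 3895606 and 7698576 to 7712148, and chromosome 3 held 1, at 52329552 to 52336891. Their lowest percentiles ran from 31.2 on chromosome 10 down to 16.1 on chromosome 3. The region on chromosome 18 at 3891979 stood alone, with the nearest WT or inflamed region 48065 bp away, and the others had one within 20952 bp. The chromosome 3 region was weak in nodules 1 and 2, at percentiles of 16.1 and 19.3, and strong in nodule 4, at 84.9.

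Regions with a peak in exactly 4 nodules number 122 against 31 in all 5, and their lowest percentile is taken over fewer nodules. Both tend to raise the highest such value. Among them a region on chromosome 6 from 99923350 to 99930207 reached 48.4, above the highest of regions in all 5, at 40.4. It lacked a peak in nodule 2, and its peaks in the other 4 nodules lay close together, at percentiles from 48.4 in nodule 1 to 56.6 in nodule 5. The next 4 spanned 25884365 to 25891253 on chromosome 15, 13212126 to 13218495 on chromosome 16, and 77283310 to 77287435 and 26049447 to 26053204 on chromosome 2, with lowest percentiles of 39.0 to 46.0. In each of these 4 the nodule without a peak was nodule 1, as in 79 of the 122 regions in exactly 4 nodules (64.8%).

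Other wide regions were uneven between nodules. On chromosome 1 from 10574739 to 10603157, nodule 5 had 28419 bp under a peak at percentile 94.6, that of its peaks tied at a score of 3100, and nodule 1 had 8299 bp at 47.2, and the other nodules had none. On chromosome 6 from 84083513 to 84109478, nodule 2 had 25966 bp under peaks and nodule 1 had 11654 bp, at percentiles of 46.0 and 46.7. On chromosome 9 from 60815035 to 60834989, nodule 5 had 19955 bp and nodule 1 had 11849 bp, with 2770 and 3414 bp in nodules 2 and 3 and none in nodule 4.

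One recurring region reached into the window that the study displays for Abcc4, which encodes a transporter that carries bile acids and glutathione out of the hepatocyte. The study displays 4 genes in windows on this build, and recurring nodule-only regions were counted in each. The windows of Cyp2c37, Cyp4a14 and Epcam held 1 merged region each, and none of these met the rule. These numbers are too small to set against the 4.69% of all merged regions. The study describes higher acetylation in tumours at Cyp2c37, Cyp4a14 and Abcc4, and at Epcam a rise in inflamed livers followed by a fall in tumours. The rule asks for presence and absence of peaks, so it does not read such changes in signal. In the Abcc4 window, 1 of 9 merged regions met the rule, a region on chromosome 14 from 119132034 to 119154376. It reached past the end of that window, and its distance to the gene was not measured. Peaks there covered 22343 bp in nodule 5, 17699 bp in nodule 4, 2374 bp in nodule 2 and 1527 bp in nodule 1, and nodule 3 had none. The percentiles were 94.6, 73.2, 22.9 and 3.43 in that order, so that nodules 4 and 5 carried a strong domain and the peak of nodule 1 was close to the cut-off. The nearest region with a WT or inflamed peak was 12383 bp away, and another recurring nodule-only region lay 8188 bp away.

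Recurring regions made up 3.42% of the merged regions on chromosome 19, the lowest share, and 6.94% on chromosome 18, the highest (138 of 1989), followed by 5.94% on chromosome 1. In windows of 5 Mb the median was 4 recurring regions over 502 windows. The 3 richest windows held 83 recurring regions, 3.18% of the set and 1.04% of all merged regions. One lay on chromosome 14 from 20000001 to 25000000, with 29 of its 199 merged regions. The others adjoined each other on chromosome 18, from 5000001 to 10000000 with 26 of 187 and from 10000001 to 15000000 with 28 of 194. The regions of most nodules in these windows had a peak in 4 nodules on chromosome 14, from 21590987 to 21596802, and in all 5 on chromosome 18, from 7698576 to 7712148 and from 11220343 to 11223798.

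Nodule 2 stood out on chromosome 18. In the first window nodules 1 to 5 had a peak in 8, 21, 11, 8 and 13 of the recurring regions, and regions of a single nodule numbered 3, 43, 6, 4 and 12. In the second window the recurring regions numbered 10, 20, 10, 14 and 14, and those of a single nodule 3, 31, 7, 1 and 7. Counting every peak, the first window held 41 to 64 peaks in WT livers and 70 to 85 in inflamed livers, and 83, 165, 103, 87 and 95 in nodules 1 to 5. These counts include the nodule-only regions themselves.

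Regions occupied in all 15 animals, which the rule does not use, were then read in these windows by their score percentiles. Over all autosomes their median percentile was 74.6, 81.2, 81.0, 74.7 and 70.2 in nodules 1 to 5, 77.9 to 82.4 in inflamed and 70.4 to 87.5 in WT livers. In the first chromosome 18 window, over 29 such regions, it was 87.0, 92.2, 72.8, 79.1 and 70.1 in nodules 1 to 5, against 67.6 to 77.7 in inflamed and 52.7 to 70.9 in WT livers. In the second window, over 37 regions, it was 87.0, 92.2, 80.4, 81.9 and 85.3, against 75.6 to 78.8 in inflamed and 55.4 to 75.1 in WT livers. Nodule 3 was thus below its level over all autosomes in both windows, though only slightly in the second. Nodule 4 was above its own level in both windows and nodule 5 in the second. Each of the 5 inflamed livers was lower than over all autosomes in both. Each of the 5 WT livers was lower in the first window, and WT livers went both ways in the second. The values of 87.0 in nodule 1, 92.2 in nodule 2, 92.9 in nodule 4 and 87.5 in WT 5 are the percentiles shared by peaks tied at a score of 3100 in those lists. They depend on how many peaks are tied, so these animals cannot be ranked against the others there. On chromosome 14, over 28 regions, nodules were at 87.0, 92.2, 86.2, 92.9 and 71.4 and inflamed livers at 78.1 to 92.0, so that nodules and inflamed livers overlapped there. WT 1 to 4 were at 65.5 to 71.3, below every nodule though close to nodule 5, and WT 5 was at its tied value of 87.5. The windows were picked for their recurring regions, so these values are a description with no test.

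**Figure D5:**
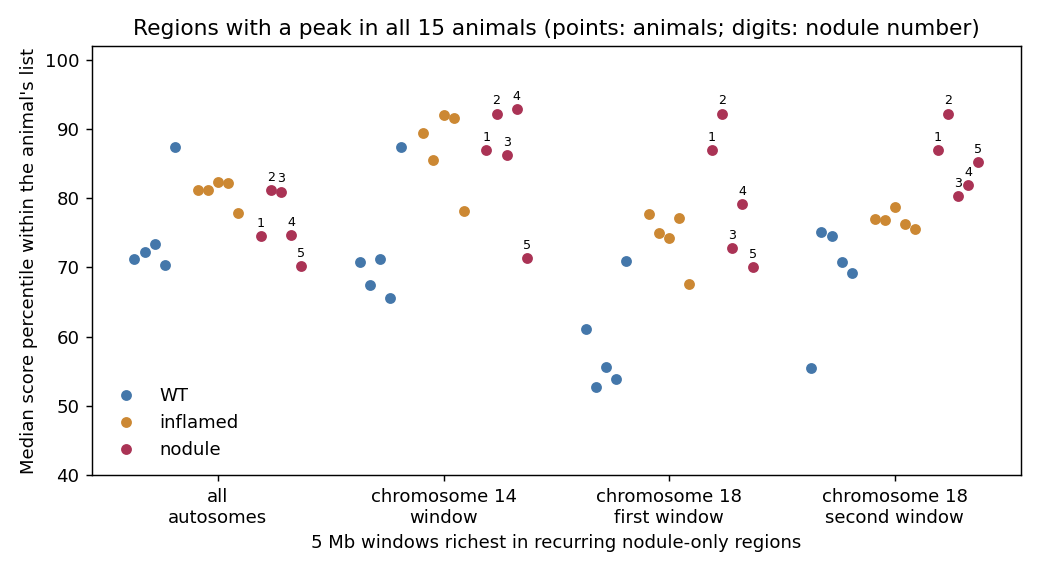
Points give, for each animal, the median score percentile within its own list (y axis, starting at 40) of regions with a peak in all 15 animals, over all autosomes and in the 3 windows of 5 Mb richest in recurring nodule-only regions (x axis). In the second chromosome 18 window the 5 nodules lie from 80.4 to 92.2 and the inflamed livers from 75.6 to 78.8, and the points of nodule 1 at 87.0 and nodule 2 at 92.2 are peaks tied at a score of 3100.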

How the data were processed

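H3K27Ac ChIP-seq peak lists of 5 WT livers, 5 inflamed livers and 5 HCC nodules were used. The authors called peaks in each animal separately and deposited the position and a score for each peak, from 50 to 3233.06. The submitters' processing notes list Bowtie 0.12.7, MACS 1.4 and mm9; the scale of the score, the control and the filters are not given in the sources used here. Many of the strongest peaks share a score of 3100, so scores were used only as ranks within a list.

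Groups were taken from the sample records. Peaks on chromosomes 1 to 19 that overlapped or adjoined were merged, and a region was occupied in an animal when any of its peaks lay in it. The set of regions, the tests and the lists of this report were chosen with earlier results of these data known. Regions were named by a rule: the 10 in all 5 nodules and the 5 in 4 nodules whose lowest percentile was highest, the 5 widest, the region of most nodules in each of the 3 richest windows, and those in the windows of displayed genes, added after the values were seen. Gene annotation, gene lists and marker genes were planned and not run, because no annotation of mm9 was used; the RefSeq tables at hand are on another build. Alternatives are given in the closing section. The code of the rule was checked on simulated lists with regions planted in 2 nodules at identical bounds, which it recovered. Their recovery was fixed by the design, so it checks the code and not the choice of rule. Python 3.11.15, NumPy 2.4.6, SciPy 1.17.1 and matplotlib 3.10.9 were used.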

Additional observations from a re-analysis of the deposited data

Results flagged for a closer look

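The spread of 5 animals was examined for 11 measures by the gap between the outermost animal and the next, divided by the range. In 2 measures it exceeded a cut-off of 0.71, which chance gives in about 1 in 20 for a single measure. Measures of the same animals are not independent, so this rate does not apply to finding 2. In both, the outermost animal was inflamed 3, animal 149198. It had 1018 autosomal regions with a peak in no other animal, against 138 to 278 in the other inflamed livers, and when left out of the choice it had a peak in 7.29% of the regions chosen on nodules, against 3.47% to 4.37% in the other inflamed livers. Its list was the longest among inflamed livers, with 40063 autosomal peaks, and the part of list length in these values was not tested.

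Chromosome X was not part of the rule. The same rule gave 57 nodule-only regions there (4.31% of 1324 merged regions), against 18 WT-only (1.36%) and 45 inflamed-only regions (3.40%).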

How the results depend on the processing

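The number of recurring nodule-only regions stayed within 1.5 times of 2610 with equal lists, peaks covering 50% of a region, merging within 1000 bp, chromosome X included, or 1 of 10 other livers allowed a peak (1903 to 3768). It was 1193 in the top 50% of each list, 654 with at least 3 nodules and 15024 when bins of 1000 bp were counted in place of regions. WT-only and inflamed-only regions numbered 385 and 906 in the top 50% of each list, 1305 and 1045 with equal lists, 1505 and 5085 with 1 other animal allowed, and 5308 and 10006 as bins. The share in 3 or more nodules, 25.1%, was 22.1% in the top 50% of each list, 27.5% with 1 other animal allowed and 23.0% without nodule 1 and WT 5, an alternative added after the data were seen. Nodules 3 and 4 shared 26% of the regions of exactly 2 nodules with equal lists, also added later. The 3 richest windows held 1.23% of the set at 1 Mb. Against all peaks of the same nodule, the score difference was -26.7 points in place of 6.55, as recurring regions lie between single-nodule regions and the whole list. Apart from settings whose construction sets the count (fewer peaks, bins, another threshold), the cause was not tested.

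Leaving out each animal in turn gave 1435 to 2872 nodule-only regions (lowest without nodule 3), 510 to 990 WT-only and 1979 to 4250 inflamed-only regions (highest without nodule 3), a share in 3 or more nodules of 16.5% (without nodule 2) to 25.8%, and a score difference of 5.66 to 7.21 points. The direction of the nodule-only count is set by the rule here. Without a nodule fewer lists can meet it, and without a WT or inflamed liver fewer lists can exclude a region. No paired analysis was possible because the labels carry no replicate numbers that tie animals of different groups. Without read counts, a missing peak cannot be told from one under the caller's cut-off.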
